A study of Homo sapiens with 6 samples.

Results

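miR-224 and miR-452 are microRNAs made from hairpins inside an intron of GABRE, the X chromosome gene for the epsilon subunit of the GABA-A receptor, a ligand-gated chloride channel. Their 4 mature products, hsa-miR-224-5p, hsa-miR-224-3p, hsa-miR-452-5p and hsa-miR-452-3p, are 4 of the 2588 mature miRNAs counted here and were chosen by name, as the products of this locus. The choice was made with the miRNA values known: the levels of the arms and their differences under TGF-β1 are therefore given as descriptions. TGF-β1, a cytokine that drives fibrotic change in epithelial cells, was given for 48 h to 2 human lung epithelial lines. A549 is a lung carcinoma line and BEAS-2B is an immortalised line of bronchial epithelium, both labelled wild type. Each line supplied a control without TGF-β1, a culture with 1 ng/mL and a culture with 5 ng/mL, and treatment began 24 h after seeding in RPMI medium with serum lowered from 10% to 1%. Whether the controls were also moved to low serum is not given in the sources used here. Small RNA from each of the 6 groups was sequenced as 1 library, so no group has a replicate check. No significance test was made of these 4 arms, which were chosen with their values known, and all intervals cover counting error only. Each line also stands for a single culture history, and a difference between the lines cannot be told apart from a difference between those particular cultures.

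A miRNA hairpin is cut by Drosha and Dicer into a duplex, whose strands are the 5p and 3p arms. Usually one arm is retained in an Argonaute protein and pairs with target mRNAs mainly through its seed, bases 2 to 8, while the other arm is degraded. miRNAs that lie within a host gene can be processed from its transcript, and neighbouring hairpins can come from a shared precursor. miR-224 has been described as a regulator of SMAD4, the common mediator of TGF-β signalling.

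The mature sequences are shown first, since the arms are counted by sequence and differ in their seeds. They are from RefSeq on GRCh38.p14, 5′ to 3′, with the seed in capitals.
hsa-miR-224-5p: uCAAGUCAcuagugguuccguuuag
hsa-miR-224-3p: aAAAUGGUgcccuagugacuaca
hsa-miR-452-5p: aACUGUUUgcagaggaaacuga
hsa-miR-452-3p: cUCAUCUGcaaagaaguaagug
No seed was shared among the 4 arms. In 2370 mature names of the sequence table, only the seed of miR-452-5p, ACUGUUU, recurred, in miR-4676-3p and miR-892c-3p. At 0, 1 and 5 ng/mL, miR-4676-3p had 4, 5 and 2 counts in A549, and the BEAS-2B libraries held 6, 1 and 2 of its reads. miR-892c-3p had 1 count in each of the 5 ng/mL libraries and 0 in the other libraries. Nearly all reads with this seed that were counted under a name in the sequence table thus came from miR-452-5p. Of the 2588 counted names, 2281 matched that table, and the seeds of the others were not checked. The reference annotation behind the deposited counts is not given in the sources used here. The counts do not keep read ends, so the seed of the molecules counted as miR-224-5p was taken from the reference and not measured.

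Both hairpins lie on the minus strand, MIR452 at chrX:151959628-151959712 and MIR224 at chrX:151958578-151958658, with 969 bases between them. They are printed with both mature arms in capitals, to show where each counted product sits in its precursor.
MIR452: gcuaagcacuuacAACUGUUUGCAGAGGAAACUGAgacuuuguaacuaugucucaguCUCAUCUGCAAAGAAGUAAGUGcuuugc
MIR224: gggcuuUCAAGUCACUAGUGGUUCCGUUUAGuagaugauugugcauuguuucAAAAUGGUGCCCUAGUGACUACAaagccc
The MIR224 hairpin has 81 bases with a GC content of 44.4%, and the MIR452 hairpin has 85 bases with 41.2%. In GENCODE release 29, GABRE (ENSG00000102287.18) spans chrX:151953124-151974680. Both hairpins are intronic in its coding transcript GABRE-201, in intron 6 of 8 at chrX:151955861-151959838, and MIR452 comes first in the direction of transcription. In 2 annotated retained-intron transcripts the sequence is exonic: GABRE-207 holds MIR224 in an exon and GABRE-209 holds both. The 3 annotated genes on this interval are GABRE, MIR224 and MIR452, all on the minus strand, and no annotated gene lies antisense to the hairpins.

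**Figure D1:**
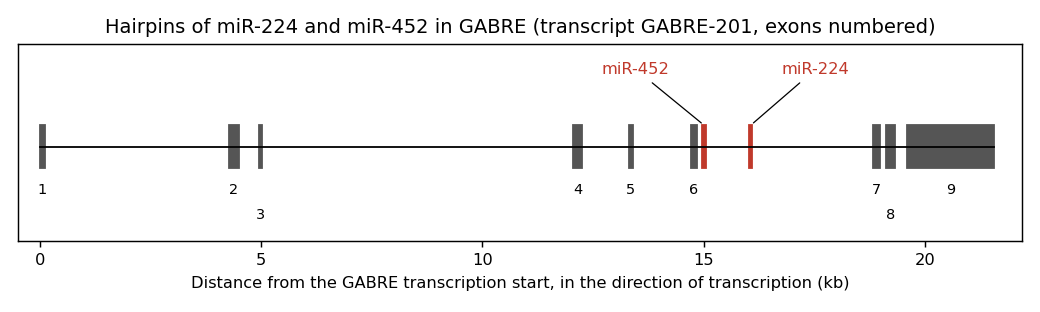
Position of the MIR452 and MIR224 hairpins in GABRE, on the coding transcript GABRE-201, in kb from its start in the direction of transcription. Grey boxes are the 9 exons and red boxes are the hairpins, both of which lie in the intron between exons 6 and 7.

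The GABRE promoter is printed because both hairpins lie downstream of it within GABRE and both 5p arms were lower after TGF-β1, although the start site of their precursor was not measured here. It is the RefSeq window chrX:151974627-151974926 on the minus strand of GRCh38.p14, 5′ to 3′ in the sense of GABRE, with the single match to CAGAC or its reverse complement GTCTG in capitals.
GABRE promoter: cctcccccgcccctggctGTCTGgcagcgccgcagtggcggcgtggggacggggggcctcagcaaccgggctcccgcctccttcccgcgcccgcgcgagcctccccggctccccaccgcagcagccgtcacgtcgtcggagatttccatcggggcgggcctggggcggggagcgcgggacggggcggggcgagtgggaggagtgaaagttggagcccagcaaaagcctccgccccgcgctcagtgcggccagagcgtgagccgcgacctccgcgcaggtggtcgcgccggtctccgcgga
CAGAC, a short form of the SMAD-binding element, matched once, at position -232 from the start site. Of 35116 promoter windows of the same length, 45.3% held it on either strand. The palindrome GTCTAGAC had 0 matches, against 0.202% of windows, and the AP-1 motif TGANTCA had 0 matches, against 7.71%. These matches describe letters in the window and no binding was measured here. GABRE mRNA was not analysed here, so host transcript and miRNA levels could not be compared.

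Total counts per library ranged from 633318 to 900424, with 902 to 1031 miRNAs having at least 1 count. The BEAS-2B control stood apart from the other 5 libraries. miR-21-5p took 35.4% of its counts, against 47.6 to 57.2% elsewhere, and its TMM factor, the composition correction of edgeR, was 1.32 against 0.829 to 1.02. Every treated-to-control ratio in BEAS-2B uses this library, and leaving it out leaves only the comparison of 5 with 1 ng/mL. The miR-200 family, 5 miRNAs typical of epithelium, was present in all 6 libraries but low, at 219 to 471 counts in sum, with miR-141-3p at 1 to 8 counts. Its summed CPM at 0, 1 and 5 ng/mL was 277, 425 and 469 in A549, with 640, 452 and 430 for BEAS-2B. CPM rests on the total count without the TMM factor, so these values are not on the scale of the arms below. Total-count scaling by itself moved BEAS-2B ratios to control by -0.43 at 1 ng/mL and -0.41 at 5 ng/mL against TMM. Any part of the miR-200 family in the results was not tested. Levels below are TMM-normalised read counts. ND is the log2 of the normalised count plus 1, and a log2 ratio is a difference of ND. The limits of the study, a fold change of 1.4 or more (0.49 on the log2 scale) and ND of 8 or more, were used to sort differences. How the study scaled its own ND is not given in the sources used here, so ND 8 may not mark the same level in both. The ND limit was applied here to the higher library of a pair. Applied to both, it left miR-452-5p out in BEAS-2B. Here "passed" means past both, not a test. All 4 arms are 22 to 25 bases long, so levels are given without a correction for length. The efficiency with which each arm enters a library is unknown, so levels of different arms show reads and not molecules.

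miR-224-5p supplied most reads of the locus. Its counts in A549 were 3185, 2159 and 2076 with 0, 1 and 5 ng/mL, or normalised counts of 3314, 2168 and 2416. Its counts in BEAS-2B were 2076, 887 and 782 at the same doses, or normalised counts of 1597, 1027 and 767. In each line the control was the highest of the 3 libraries. All A549 libraries were above all BEAS-2B libraries under TMM and in 4 of 6 scalings in all, but not under total count, where the BEAS-2B control (2109) was above A549 with 1 ng/mL (1792), nor in raw counts, where it equalled A549 with 5 ng/mL. This order thus depends on how the BEAS-2B control, the library that stood apart, is scaled. Among all miRNAs it ranked between 26 and 33 by count in A549 and between 36 and 56 in BEAS-2B. In the TMM order of the 6 levels, each library differed from the next beyond counting error. In bulk RNA, less miRNA per cell and fewer cells carrying it cannot be told apart.

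miR-452-5p, the main product of the second hairpin, was far less abundant in reads. A549 had 229, 170 and 100 counts at 0, 1 and 5 ng/mL, or normalised counts of 238, 171 and 116. BEAS-2B had 419, 136 and 174 counts, or normalised counts of 322, 157 and 171. Here the BEAS-2B control was the highest library and A549 with 5 ng/mL the lowest, so the order of the lines was not that of miR-224-5p. A549 at 1 ng/mL and both treated BEAS-2B libraries were neighbours in this order and did not differ beyond counting error. ND reached 8 only in the BEAS-2B control, at 8.34. The A549 control missed it at 7.90, so no A549 difference of miR-452-5p could pass.

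The 3p arms were minor products in every library. At 0, 1 and 5 ng/mL, miR-224-3p had 50, 36 and 26 counts in A549, and 53, 14 and 31 counts were found for BEAS-2B. Its ND never exceeded 5.73, and no neighbours in its order of levels differed beyond counting error. miR-452-3p had 4, 5 and 1 counts in A549 and 10, 6 and 5 in BEAS-2B, near the 3 counts taken here as the floor, which equal 2.31 to 3.49 normalised counts. Its ratios are not read further, since every interval of them included 0.

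**Figure D2:**
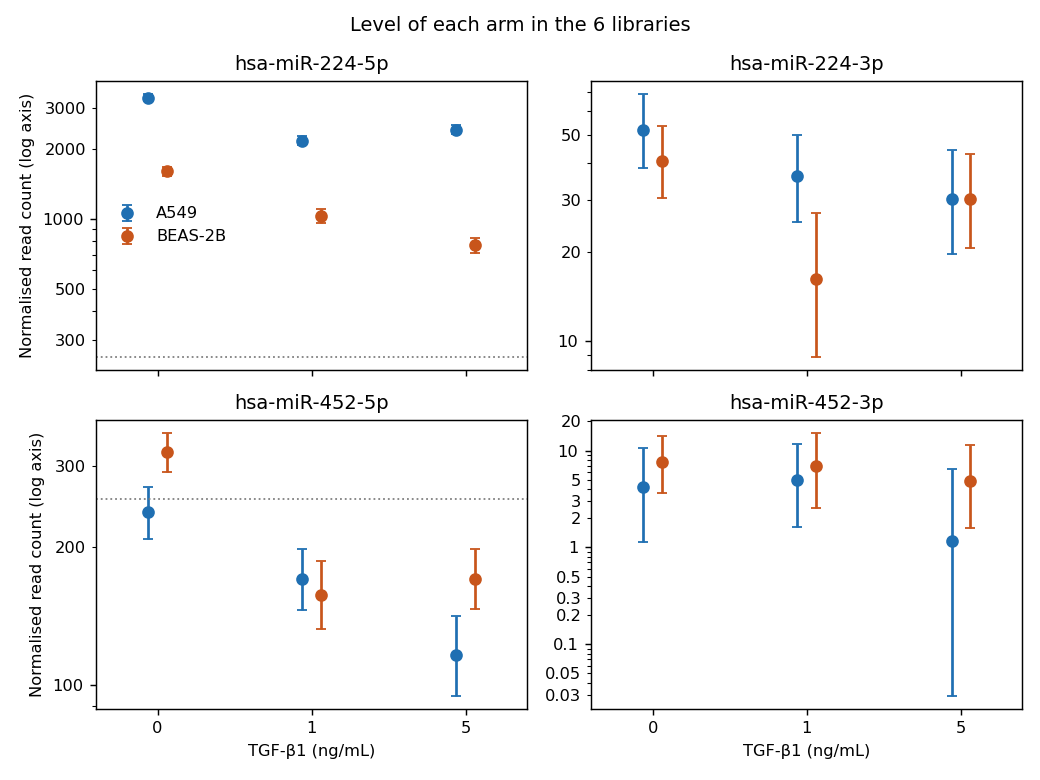
Normalised read count of each arm on a log axis against TGF-β1 dose, 1 library per point, with exact Poisson 95% intervals for counting error. The dotted line on the 5p panels is ND 8, equal to 255 normalised counts. miR-224-5p is well above it in all 6 libraries and miR-452-5p only in the BEAS-2B control.

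Arm choice leaned to the 5p arm in both hairpins at all doses. The 5p arm held 98.5, 98.4 and 98.8% of miR-224 reads in A549 at 0, 1 and 5 ng/mL, and 97.5, 98.4 and 96.2% in BEAS-2B. For miR-452 the 5p share was 98.3, 97.1 and 99.0% in A549, with 97.7, 95.8 and 97.2% for BEAS-2B. A quotient of 2 arms in 1 library does not depend on the scaling between libraries. The 5p to 3p quotient of miR-224 was lower in BEAS-2B than in A549 at 5 ng/mL, by a ratio of 0.316 (95% interval 0.179 to 0.554), and in the controls, by 0.615 (0.408 to 0.927), but not at 1 ng/mL, where the ratio of 1.06 had an interval of 0.553 to 2.13. Within BEAS-2B it was lower at 5 than at 1 ng/mL, by a ratio of 0.398 (0.194 to 0.778), with 14 and 31 reads of the 3p arm behind the values. No treated-to-control ratio of this quotient had an interval without 1 in either line. For miR-452, with at most 10 reads of the 3p arm, no comparison of the quotient was beyond counting error.

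With TGF-β1, miR-224-5p was lower than its control in both lines. At the lower dose, A549 showed a log2 ratio of -0.61 (95% interval -0.69 to -0.53), which passed, and at the higher dose one of -0.46 (-0.54 to -0.38), a 1.37-fold difference just short of the 1.4-fold limit. BEAS-2B showed -0.64 (-0.75 to -0.52) with 1 ng/mL, then -1.06 (-1.18 to -0.94) with 5 ng/mL, and both passed. Between the doses the sign differed between the lines, as 5 against 1 ng/mL gave 0.16 (0.069 to 0.24) in A549 and -0.42 (-0.56 to -0.28) in BEAS-2B. Neither passed, and without any scaling the A549 value was -0.057. The BEAS-2B ratio minus the A549 ratio was -0.025 (-0.16 to 0.11) at the lower dose and -0.60 (-0.75 to -0.46) at the higher under TMM. Over the 7 scalings it ranged from -0.67 to 0.040 at the lower dose, where 3 intervals lay below 0 and 4 included 0, and from -1.17 to -0.42 at the higher, where all 7 lay below 0.

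miR-452-5p was also lower than its control in all 4 comparisons. A549 showed log2 ratios of -0.48 (-0.78 to -0.19) with 1 ng/mL, then -1.03 (-1.39 to -0.69) with 5 ng/mL, and neither was eligible at ND 7.90. BEAS-2B showed -1.03 (-1.32 to -0.75) with 1 ng/mL, then -0.91 (-1.18 to -0.66) with 5 ng/mL, and both passed. The A549 value at 5 ng/mL, a 2.04-fold difference, was thus as large as those that passed in BEAS-2B and was kept out by its level alone. Between the doses, 5 against 1 ng/mL gave -0.55 (-0.92 to -0.19) in A549 and 0.11 (-0.22 to 0.45) in BEAS-2B. The order of the doses in each line was therefore not that of miR-224-5p: in A549 miR-452-5p was lower at 5 than at 1 ng/mL while miR-224-5p was higher, and in BEAS-2B miR-224-5p was lower at 5 than at 1 ng/mL while for miR-452-5p the interval included 0. The BEAS-2B ratio minus the A549 ratio was -0.55 (-0.95 to -0.15) at the lower dose and 0.12 (-0.31 to 0.54) at the higher. Its interval lay below 0 in all 7 scalings at the lower dose and in 1 of 7, total count, at the higher.

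miR-224-3p was below its control in all 4 comparisons, with wide intervals. A549 showed log2 ratios of -0.51 (-1.19 to 0.12) with 1 ng/mL, then -0.76 (-1.52 to -0.071) with 5 ng/mL. The BEAS-2B values were -1.28 (-2.30 to -0.46), then -0.41 (-1.11 to 0.24). The 4 arms summed gave -0.60 and -0.49 in A549, against -0.70 and -1.02 in BEAS-2B, nearly the values of miR-224-5p, which held most of the reads.

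Many miRNAs passed in these comparisons. In A549, only miR-224-5p of the 4 arms reached ND 8 and could pass. It passed as lower at 1 ng/mL, where 21.9% of 137 miRNAs with ND of at least 8 did, and not at 5 ng/mL, where 26.2% of 141 did. In BEAS-2B, both 5p arms, the 2 arms that could pass, passed as lower at 1 ng/mL, where 13.3% of 120 did, and at 5 ng/mL, where 16% of 125 did. Between 5 and 1 ng/mL, miR-224-5p was the 1 arm that could pass and did not in either line, against 16.9% of 130 in A549 and 6.61% of 121 in BEAS-2B in either direction. Counted from the lowest log2 ratio, miR-224-5p took place 20 of 137 and 41 of 141 in A549 and place 11 of 120 and 5 of 125 in BEAS-2B at 1 and 5 ng/mL. miR-452-5p took place 5 of 120 and 6 of 125 in BEAS-2B. It entered these sets only through the control, at ND 8.34 against 7.31 and 7.42 at 1 and 5 ng/mL. Such an entry favours a low ratio, so its places and its passing in BEAS-2B are no support for a decrease. All places given here describe a choice of miRNAs made with the values known, and the BEAS-2B places rest on the control library that stood apart.

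**Figure D3:**
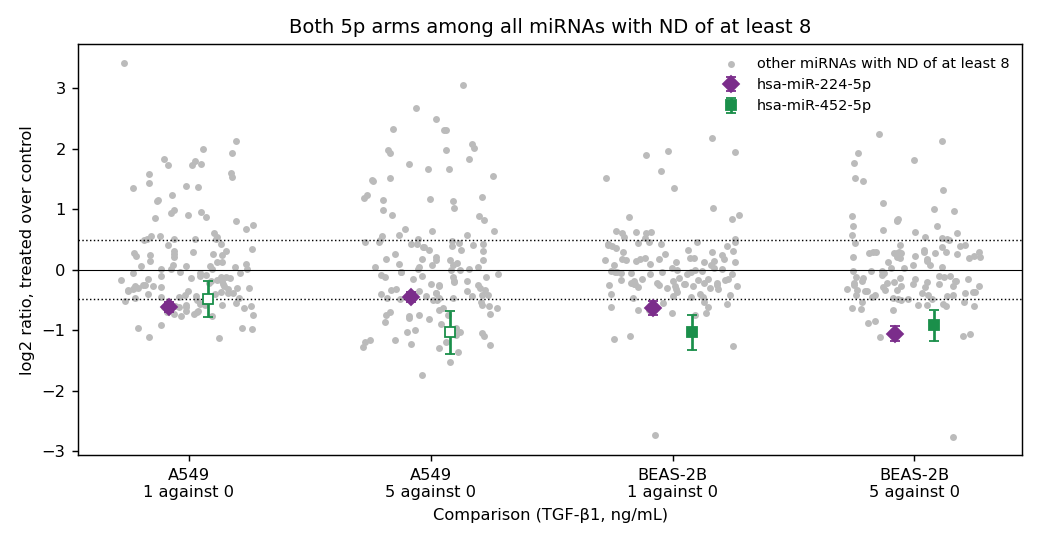
log2 ratio of treated over control for both 5p arms, with 95% counting intervals, among the other miRNAs with ND of at least 8 (grey points, spread sideways for display). Dotted lines mark 1.4-fold, and open squares mark miR-452-5p in A549, where its ND was below 8. The 5p arms lie below 0 in all 4 comparisons, with other miRNAs at similar or lower values in each.

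The sign of these 8 ratios did not depend on how the libraries were scaled. Over 7 scalings, miR-224-5p ranged from -0.75 to -0.56 and from -0.62 to -0.30 in A549 at 1 and 5 ng/mL, and from -1.23 to -0.59 and from -1.47 to -0.88 in BEAS-2B. miR-452-5p ranged from -0.62 to -0.43 and from -1.19 to -0.87 in A549, and from -1.62 to -0.99 and from -1.32 to -0.73 in BEAS-2B. Every one of these counting intervals lay below 0. Sizes did depend on the scaling in BEAS-2B: total-count scaling moved the BEAS-2B ratios of all miRNAs by -0.43 at 1 ng/mL and -0.41 at 5 ng/mL against TMM. For miR-224-5p in A549 at 5 ng/mL, 4 of the 7 scalings put the difference past the criteria.

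**Figure D4:**
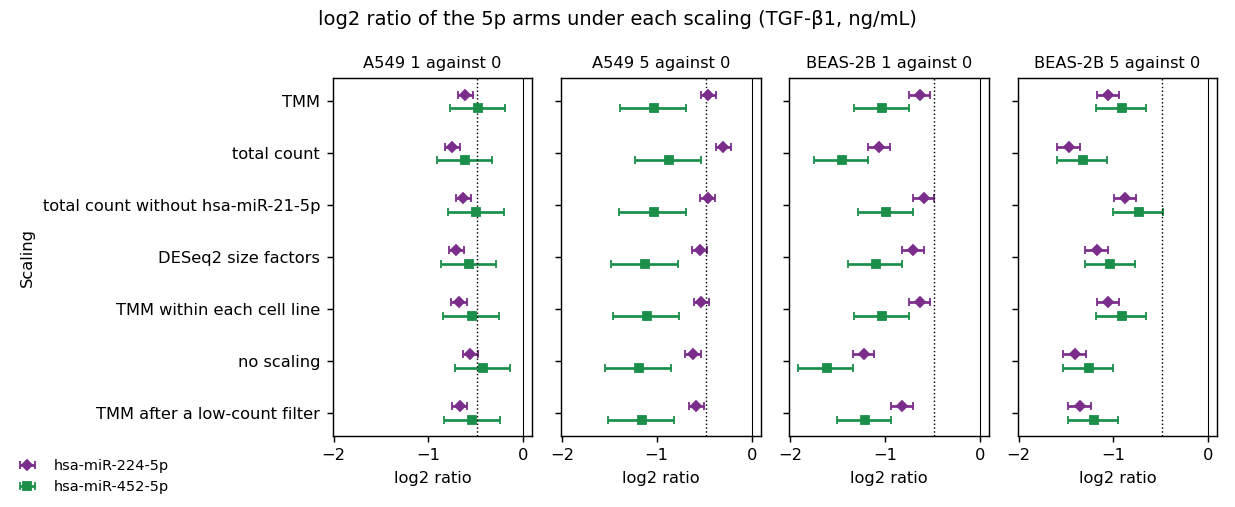
log2 ratio of treated over control for miR-224-5p and miR-452-5p under each of 7 scalings, with 95% counting intervals and a panel for each comparison. The dotted line marks 1.4-fold lower and the solid line no difference, and all intervals lie left of the solid line.

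The lines differed in how much of each 5p arm they held. miR-224-5p was lower in BEAS-2B than in A549 at every dose, with log2 ratios of -1.05 in the controls, -1.08 at 1 ng/mL and -1.65 at 5 ng/mL, all of which passed in each of 6 scalings. TMM gave the largest of the control values, which reached -0.51 under total count. miR-452-5p was higher in the BEAS-2B control, at 0.43 (0.20 to 0.67), a 1.35-fold difference that did not pass, and at 5 ng/mL, at 0.55 (0.19 to 0.92) with ND below 8. TMM gave the smallest of 6 values for the controls, which reached 0.97 under total count and passed in 4 of the 6 scalings. Of the 2 controls only that of BEAS-2B reached ND 8, at 8.34 against 7.90 in A549 under TMM. Such an entry favours a high ratio, so this passing is no support for an excess in BEAS-2B. At 1 ng/mL miR-452-5p gave -0.12 (-0.45 to 0.22), a value whose sign changed with the scaling. Thus 1 of the 2 arms with ND of at least 8 passed in the controls, and 1 of 1 at each dose, where 68.9% of 135 miRNAs passed in the controls, 64.3% of 143 at 1 ng/mL and 67.8% of 146 at 5 ng/mL in either direction.

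The proportion of the 2 neighbours was therefore not fixed. miR-452-5p made up 6.71, 7.30 and 4.60% of the reads of both 5p arms in A549 at 0, 1 and 5 ng/mL and 16.8, 13.3 and 18.2% in BEAS-2B. Every BEAS-2B share exceeded every A549 share, though the 3 libraries of a line are doses and not replicates. A line difference in 1 direction at every dose was not particular to this locus. The log2 quotient of miR-15b-5p to miR-16-2-3p was higher in BEAS-2B than in A549 by 0.89, 1.29 and 1.97 at 0, 1 and 5 ng/mL. That of miR-25-3p to miR-93-5p changed sign, with differences of 0.74, 0.12 and -0.52. Both of these pairs join a 5p and a 3p arm, unlike the 2 5p arms of this locus. The quotient of miR-452-5p to miR-224-5p was higher in BEAS-2B than in A549 by a ratio of 2.81 (2.36 to 3.34) in the controls, 1.95 (1.52 to 2.49) with 1 ng/mL, then 4.62 (3.54 to 6.05) with 5 ng/mL. Library capture that is constant for each arm cancels in this ratio, as does the scaling. Within A549 the quotient was lower at 5 ng/mL than in the control, by a ratio of 0.670 (0.521 to 0.857), and was not beyond counting error at 1 ng/mL, at 1.10 (0.886 to 1.35). Within BEAS-2B it was lower at 1 ng/mL, by 0.760 (0.612 to 0.939), and not beyond counting error at 5 ng/mL, at 1.10 (0.901 to 1.34). The smallest ratio between the lines, 1.95, was further from 1 than the ratios between 5 and 1 ng/mL, 0.612 in A549 and 1.45 in BEAS-2B.

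**Figure D5:**
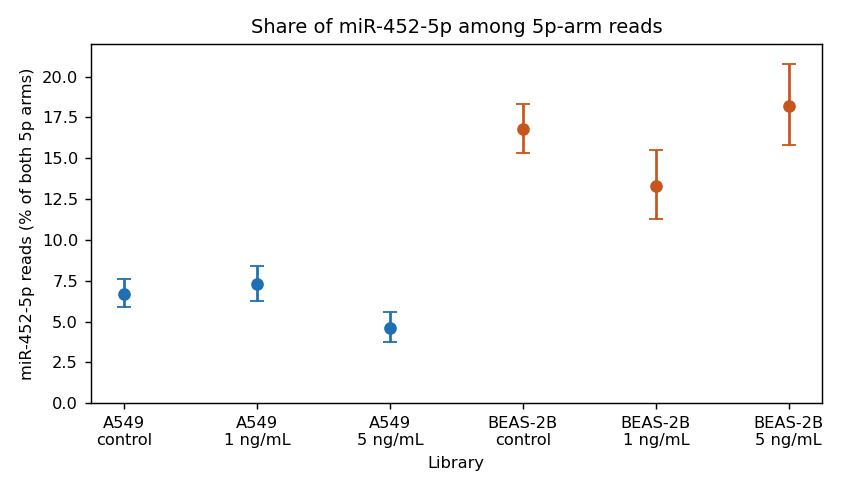
Share of miR-452-5p among the reads of both 5p arms in each library, in percent, with exact binomial 95% intervals. The 3 A549 libraries lie between 4.60 and 7.30% and the 3 BEAS-2B libraries between 13.3 and 18.2%.

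The miRNAs whose pattern over the 6 libraries was most like that of each 5p arm were found by the root mean square difference of ND after each miRNA was centred on its own mean, over 155 miRNAs. For miR-224-5p they were miR-744-5p (0.303), miR-10a-5p (0.312), miR-27b-3p (0.322), miR-450a-5p (0.337) and miR-128-3p (0.358). For miR-452-5p they were miR-32-5p (0.283), miR-149-5p (0.287), miR-103b (0.292), miR-103a-3p (0.297) and miR-345-5p (0.299). miR-103b lies antisense to a miR-103a hairpin, and no source used here says that counting was by strand, so these last values may rest on the same reads. The arms were not close to each other, at 0.821, which put miR-452-5p in place 68 for miR-224-5p and miR-224-5p in place 99 for miR-452-5p. The libraries share their scaling in all these values. Closeness took in the line levels too and did not mean a shared ratio to control. At 1 and 5 ng/mL miR-744-5p had log2 ratios of -0.089 and 0.17 in A549, against -0.61 and -0.46 for miR-224-5p. miR-10a-5p had -0.52 and -0.73 there. In BEAS-2B miR-32-5p had -0.24 and -0.15, against -1.03 and -0.91 for miR-452-5p, and miR-149-5p had -1.27 and -1.09. With a limit of ND 6 in any library, 3 of the 5 stayed for miR-224-5p and 5 of 5 for miR-452-5p.

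Other miRNAs of the X chromosome passed as lower mainly in A549. Of 143 others in the files, 88 had a count and 10 or fewer reached ND 8 in each treated-to-control comparison. In A549, 6 of 10 passed as lower at 1 ng/mL, against 21.9% of all miRNAs compared, and 6 of 10 at 5 ng/mL, against 26.2%, with medians of -0.61 and -0.96, where the medians over all miRNAs compared were -0.11 and -0.032. In BEAS-2B, 0 of 9 passed at 1 ng/mL, and 2 passed as higher and 1 as lower of 10 at 5 ng/mL, with medians of 0.13 and 0.078 against -0.036 and -0.084. The 6 were the same at both doses: miR-450a-5p, miR-450b-5p, miR-374a-3p, miR-374b-5p, miR-374c-3p and miR-361-3p. Most belong to the miR-450 and miR-374 groups, so they are not 6 separate loci and give no measure for the whole chromosome. At both doses miR-374a-3p reached ND 8 only through the control, as did miR-450b-5p and miR-374b-5p at 5 ng/mL. Such an entry favours a low ratio, so the passing of these is no support for a decrease. RefSeq places miR-374b-5p and miR-374c-3p at the same bases on opposite strands. Their counts in the A549 control were near-equal, at 559 and 596, so they may hold the same reads. miR-450a-5p, which also passed as lower at both doses in A549, had log2 ratios of -0.59 and -1.03 in A549, against -0.23 and -0.33 in BEAS-2B.

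The closest counterpart of the locus is miR-105 and miR-767 in GABRA3, another GABA-A receptor gene on the X chromosome. miR-105-5p had 57, 50 and 46 counts in A549 and 3, 9 and 2 in BEAS-2B at 0, 1 and 5 ng/mL, and miR-767-5p had 11, 25 and 10 counts in A549 and 0 in all 3 BEAS-2B libraries. In the controls miR-105-5p was 25.7-fold higher in A549, with an interval of 8.36 to 128 and BEAS-2B at 3 counts. At 1 ng/mL the fold was 4.82 (2.35 to 11.1), and at 5 ng/mL it was 27.3 (7.14 to 232). Set against a floor of 3 counts per BEAS-2B library, the miR-767-5p levels of A549 gave folds of 4.96, 7.23 and 3.96 at 0, 1 and 5 ng/mL. These folds leave out the counting error of the A549 reads and are not lower bounds. None of the 4 arms of that locus reached ND 8. The excess of A549 over BEAS-2B was thus in the direction of miR-224-5p and not of miR-452-5p.

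Among 4 other miRNAs described as targeting SMAD4, miR-26a-5p and miR-146a-5p were the ones with ND of at least 8, while miR-18a-5p and miR-130a-3p were below it. miR-146a-5p had 255, 193 and 160 counts in A549 and 6168, 3950 and 4760 in BEAS-2B, and passed as lower in A549 at 5 ng/mL, with a log2 ratio of -0.51. In A549 it reached ND 8 only in the control. Such an entry favours a low ratio, so this passing is no support for a decrease. miR-26a-5p had 12178, 11434 and 10648 counts in A549 and 26469, 14638 and 16192 in BEAS-2B and passed in no treated-to-control comparison. Over all miRNAs compared, 26.2% of 141 passed as lower in A549 at 5 ng/mL. In BEAS-2B neither of these 2 passed, where 13.3% of 120 passed as lower at 1 ng/mL and 16% of 125 at 5 ng/mL. Nor did either pass in A549 at 1 ng/mL, where 21.9% of 137 passed as lower. Calls on 2 miRNAs are too few to be set against these shares, and set up no contrast with the GABRE locus.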

How the data were processed

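Total RNA of A549 and BEAS-2B cells was made into small RNA libraries with the NEBNext Multiplex Small RNA kit, 1 library for each of the 6 groups. The deposited values are raw read counts per mature miRNA, not normalised by the authors. Bowtie2 and bedtools are named in the submitters' processing notes. Versions, parameters, genome build, miRNA annotation and strand handling are not given in the sources used here. Intervals cover counting error only and take each read as independent. No molecular identifiers were used, so copies of 1 molecule could not be removed and the intervals may be too narrow.

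From the counts, TMM factors were computed with edgeR 4.0.16 (R 4.3.3) over all libraries. Normalised counts were scaled to the mean effective size, and 1 was added before log2. No dispersion was estimated and no p-value was computed. Ratios carry exact conditional binomial 95% intervals (differences of ratios a normal approximation), levels exact Poisson intervals, shares exact Clopper-Pearson intervals and quotients exact conditional intervals, from scipy 1.17.1. Interval code was tested on simulated data. Alternatives were total counts with and without miR-21-5p, DESeq2 1.42.0 size factors, TMM within each line, TMM after a filter at 10 counts, no scaling, other pseudocounts, and other ND and fold limits.

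Members and lists were chosen with earlier results of these data known. Named beside them were the 5 miRNAs closest in pattern to each 5p arm, those sharing a seed, those of GABRA3 and those described as targeting SMAD4. The miR-200 family and the neighbouring hairpins were added after values were seen. Of 2588 names, 2281 matched the RefSeq miRNA table, and sequences and hairpin positions are from RefSeq GRCh38.p14.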

Additional observations from a re-analysis of the deposited data

How the results depend on the processing

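No paired analysis was possible because each group has 1 library. Each treated library was compared with the control of its own line, and a model over both lines was not fitted, since the arms were chosen with their values known. The depth limits the 3p arms most. No difference that passed changed sign. The difference of the 4 arms summed between 5 and 1 ng/mL in A549, which did not pass, did change sign: it was above 0 beyond counting error in 5 of 7 scalings and below 0 in 1, without scaling. The 4 arms summed moved by more than their counting interval as follows. Total-count scaling gave log2 ratios of -0.74 and -0.34 in A549 at 1 and 5 ng/mL, 0.40 for 5 against 1 ng/mL, -1.13 and -1.43 in BEAS-2B, and -0.34 and -0.73 for BEAS-2B against A549 at 0 and 1 ng/mL. Total counts without miR-21-5p gave -0.83 in BEAS-2B at 5 ng/mL, -0.17 for 5 against 1 ng/mL, and -0.80, -0.84 and -1.14 between the lines at 0, 1 and 5 ng/mL. DESeq2 size factors gave -0.70 and -0.59 in A549 and -1.13 in BEAS-2B at 5 ng/mL. No scaling gave -0.65 in A549 at 5 ng/mL, -0.11 for 5 against 1 ng/mL, -1.29, -1.37 and -0.072 in BEAS-2B at 1 ng/mL, at 5 ng/mL and for 5 against 1 ng/mL, and -0.44, -1.18 and -1.15 between the lines. The low-count filter gave -0.62 in A549 at 5 ng/mL, -0.89 and -1.31 in BEAS-2B, and -0.55, -0.78 and -1.25 between the lines. The cause of these shifts was not tested.

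The number of arms that passed in A549 at 5 ng/mL became 1 with DESeq2, TMM within each line, no scaling, the low-count filter or ND of at least 7. A 2-fold limit left 0 in A549 at 1 ng/mL and 1 in BEAS-2B at each dose. ND of at least 9, or of 8 in both libraries, left 1 in BEAS-2B at each dose. ND of at least 7 gave 1 in A549 between doses and 2 between the lines at 5 ng/mL, and the low-count filter gave 1 in BEAS-2B between doses. Between the controls of the lines, 2 passed under both total counts, no scaling and the low-count filter. The second was miR-452-5p, which entered only through the BEAS-2B control. Over all miRNAs, the number that passed in BEAS-2B went from 35 to between 13 and 88 at 1 ng/mL, from 45 to between 15 and 79 at 5 ng/mL and from 8 to between 2 and 20 between doses. In A549 it went from 67 to as few as 21 at 1 ng/mL, from 75 to as few as 41 at 5 ng/mL and from 22 to between 0 and 40 between doses. Between the lines it went from 93, 92 and 99 to as few as 55, 48 and 50 at 0, 1 and 5 ng/mL.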

Other observations

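The change in proportion between miR-452-5p and miR-224-5p can be set beside other neighbouring hairpins, a comparison added after the values were seen and given as a description. Neighbours were hairpins on the same strand with at most 10 kb between their mature arms. From each, the most abundant of the arms that mapped to 1 locus was taken, with ND of at least 7 in either line. Some pairs join a 5p and a 3p arm, among them miR-15b-5p with miR-16-2-3p, while the GABRE pair joins 2 5p arms. The absolute difference between the lines in the log2 quotient of such neighbours was 1.49 for the GABRE pair in the controls, above all 13 other pairs, whose median was 0.43 and whose highest was 0.89, for miR-15b-5p and miR-16-2-3p. At 1 ng/mL the GABRE pair had 0.96, with 1 of 15 other pairs greater, and at 5 ng/mL it had 2.20, again with 1 of 15 greater. The pair above it was miR-15b-5p and miR-16-2-3p at 1 ng/mL, with 1.29, and miR-543 and miR-495-3p at 5 ng/mL, with 2.37. Pairs of a longer cluster share members, and the level of a pair decides how much counting error its quotient carries.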
